A study of Mus musculus with 4 samples.

Results

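The cytosolic ribosomal protein genes are the nuclear genes that encode the protein part of the ribosomes of the cytoplasm. They were taken by symbol (Rpl and Rps genes with a number, Rplp0, Rplp1, Rplp2 and Rpsa, without S6 kinase genes and pseudogene symbols). Of 24411 gene symbols, 84 matched, and the 79 with at least 10 reads summed over the 4 libraries are the members described here, 47 of the large and 32 of the small subunit. Their mRNAs were counted in rRNA-depleted, stranded libraries of BV2, a mouse microglia cell line that grows without limit. Of the libraries, 2 came from cells given 10 ng/ml lipopolysaccharide (LPS), a bacterial wall component sensed by TLR4, and 2 from untreated cells. Both groups carry the label of a CRISPR-Cas9 knockout of PU.1 (gene Spi1), a transcription factor of the ETS family, so no effect of the genotype is measured here. Exposure to LPS is labelled as 2 h in one place and as 4 h in another. The labels do not say whether the line is a clone or whether the libraries of a group came from separate cultures, so p-values measure only the spread between these libraries, which may be technical.

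A ribosome has a small subunit, which holds the mRNA and reads its codons, and a large subunit, which joins the amino acids and lets the new chain leave through a tunnel. The proteins are needed in about equal numbers, and their mRNAs are among the most abundant of a growing cell. In mammals most of these mRNAs begin with a C followed by a run of pyrimidines, the terminal oligopyrimidine (TOP) tract, through which the kinase complex mTORC1 and the binding protein LARP1 control their translation. Promoters of these genes often carry sites for ETS family factors, the family to which PU.1 belongs.

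Promoter windows from RefSeq (build GRCm38.p6, 250 bases before to 50 bases from the annotated start) were matched by symbol for 59 of the 79 members. Of these, 13 had an annotated start on a TOP tract, and 6 of the 13 were picked by hand, 2 of each call (higher, lower and not past the test). They are shown from 80 bases before the start to 20 bases from it, in the direction of transcription. Capitals after the first 80 bases mark the TOP tract, and capitals before it mark CCGGAAG (the core that many ETS factors bind) or GAGGAAGT (a sequence like the preferred site of PU.1), on either strand. Further matches lie in the rest of some windows.
Rpl35, chr2:39005112-39005211, minus strand: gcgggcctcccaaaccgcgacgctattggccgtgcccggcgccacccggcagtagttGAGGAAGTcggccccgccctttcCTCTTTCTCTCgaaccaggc
Rps10, chr17:27635225-27635324, minus strand: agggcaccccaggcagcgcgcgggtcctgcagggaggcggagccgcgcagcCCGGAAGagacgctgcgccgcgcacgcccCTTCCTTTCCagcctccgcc
Rpl28, chr7:4792885-4792984, plus strand: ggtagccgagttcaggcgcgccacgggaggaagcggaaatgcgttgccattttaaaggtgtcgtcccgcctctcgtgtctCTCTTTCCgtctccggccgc
Rplp2, chr7:141447571-141447670, plus strand: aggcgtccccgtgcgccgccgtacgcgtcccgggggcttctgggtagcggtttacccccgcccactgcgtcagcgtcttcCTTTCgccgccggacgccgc
Rps18, chr17:33955646-33955745, minus strand: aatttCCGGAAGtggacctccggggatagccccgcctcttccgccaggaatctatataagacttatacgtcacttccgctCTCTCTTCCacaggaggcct
Rps6, chr4:86857348-86857447, minus strand: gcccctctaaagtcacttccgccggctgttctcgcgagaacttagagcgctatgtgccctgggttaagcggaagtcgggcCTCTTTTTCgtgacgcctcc
Rpl35 and Rps10 were higher after LPS, Rpl28 and Rplp2 lower, and Rps18 and Rps6 did not pass the test, as described below. This balance follows from the pick, and the calls of all 13 members with a TOP start are given further below.

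Reads in genes totalled 3256197 and 3749159 in the LPS libraries and 4502105 and 4115011 in the untreated libraries. Spi1 itself had 745 and 958 reads in the LPS libraries and 844 and 743 in the untreated libraries. With the TMM scaling described below it was at 258 and 290 CPM after LPS and 161 and 164 CPM without (log2 fold change 0.75, SE 0.091). Its RNA is thus present, and the counts say nothing of the edited site. All 12 macrophage and microglial markers matched had at least 10 reads over the 4 libraries, with summed levels of 3779 and 3986 CPM in LPS libraries and 2805 and 2888 CPM in untreated libraries (7 of 11 tested were higher and 2 lower). Among them, P2ry12, a marker of resting microglia, was at 0.346 and 0 CPM in LPS libraries and 2.29 and 1.55 CPM in untreated libraries. These levels come from 1 and 0 reads against 12 and 7, and P2ry12 was not tested. Of the tested markers, Cx3cr1 rose (log2 fold change 1.51, SE 0.33) and Tmem119 fell (-1.78, SE 0.26). None of 19 markers of fibroblasts, astrocytes, neurons, oligodendrocytes, lymphocytes or endothelium reached 10 reads, 13 of them were at 0 in every library, and their summed level was 0.221 to 2.12 CPM. Rn45s, the ribosomal RNA precursor, took 20.9% and 20% of gene counts in the LPS and 14.6% and 19.0% in the untreated libraries, and the part of the markers and of Rn45s in the results below was not tested.

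The summed level of the ribosomal protein mRNAs overlapped between LPS and untreated libraries, while single members moved either way. Levels are given as CPM on TMM-scaled library sizes, a scaling that sets the bulk of genes to no change. Summed over the 79 members, the level was 40349 and 46150 CPM in the LPS libraries and 42796 and 43563 CPM in the untreated libraries. The LPS libraries lay on either side of the untreated pair, so the groups overlapped. The small subunit genes made up 40.9% and 40.8% of that sum after LPS and 41.5% and 41.4% without LPS. CPM are relative values, and they show neither the number of cells nor the amount of RNA per cell.

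On unscaled counts the picture was another one. The members took 3.58% and 4.06% of gene counts in the LPS libraries and 4.98% and 4.79% in the untreated libraries, with 95% Wilson intervals of 3.56% to 3.60%, 4.04% to 4.08%, 4.96% to 5.00% and 4.77% to 4.81%, which cover counting error only. Both LPS libraries were below both untreated ones. Without 5 abundant entries (Rn45s, Lars2, Mir6236, Rmrp and Rpph1) the shares were 5.02% and 5.61% after LPS against 6.14% and 6.26% without LPS. When libraries were scaled by size alone, the median log2 fold change was -0.36 over all genes tested and -0.36 over the members. Set against the median of all genes, the member median was -0.0053 with TMM scaling and -0.0034 with library size alone.

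Of 77 members that passed the expression filter, 21 rose and 15 fell at an adjusted p below 0.05 (edgeR quasi-likelihood test, two-sided, Benjamini-Hochberg over 9992 genes), and 41 did not pass, with 4 higher and 50 lower when libraries were scaled by size alone and 13 higher and 26 lower with upper quartile scaling. Over all genes, 26.6% were higher and 25.3% lower, 51.9% in either direction. The members' share of 46.8% is near that background and is no result about them. With library size alone 13.8% of all genes were higher and 47.8% lower. With upper quartile scaling 2222 of the 9992 genes were higher and 3056 lower. The median log2 fold change was -0.0047 for the members and 5.7e-04 for all genes tested. Large subunit genes split into 13 higher and 8 lower of 45, with a median of 0.00057, and small subunit genes into 8 higher and 7 lower of 32, with a median of -0.024. Each subunit held both risers and fallers under this scaling, and the difference between the subunits was not tested.

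The changes were small. The log2 fold change was within 0.5 of 0 for 64 of the 77 members (83.1%), against 57.4% of all genes tested, and its standard deviation over genes was 0.42 for the members and 1.17 for all genes. The middle of the members, between the lower and the upper quartile, lay at -0.16 to 0.21, against -0.42 to 0.41 for all genes. Most members are abundant, and genes of low count have a wider spread, whose part in this difference was not tested. Of the members, 1 rose and 2 fell by 2-fold or more, where 17.2% of all genes passed that limit in either direction. The riser was Rps27, which had few reads and whose call was lost in 6 of 14 alternative settings, as described below.

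**Figure D1:**
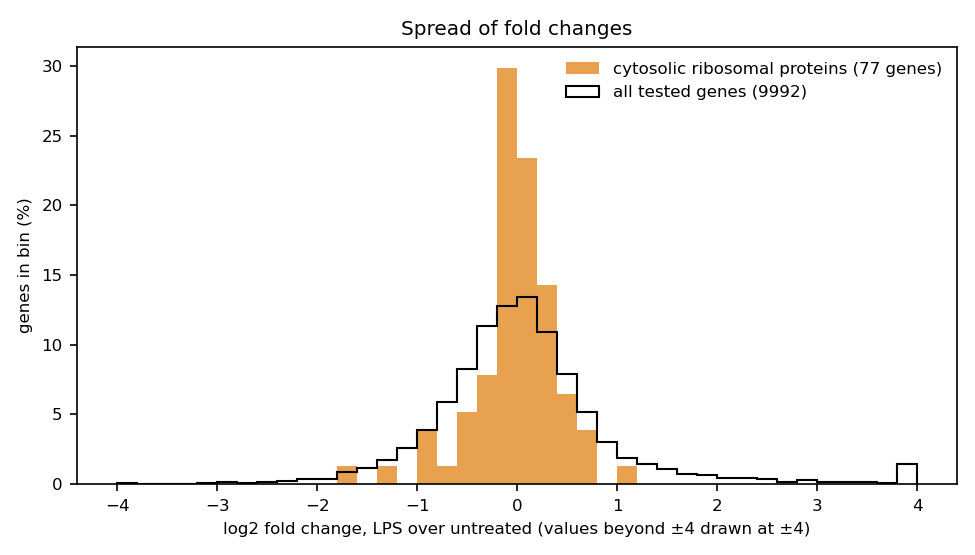
Histogram of log2 fold changes (x axis, LPS over untreated) as the percent of genes per bin (y axis) for the 77 tested ribosomal protein genes (filled) and all 9992 tested genes (line), with values beyond ±4 drawn at ±4. Both centre on 0, and the members gather within 0.5 of it.

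**Figure D2:**
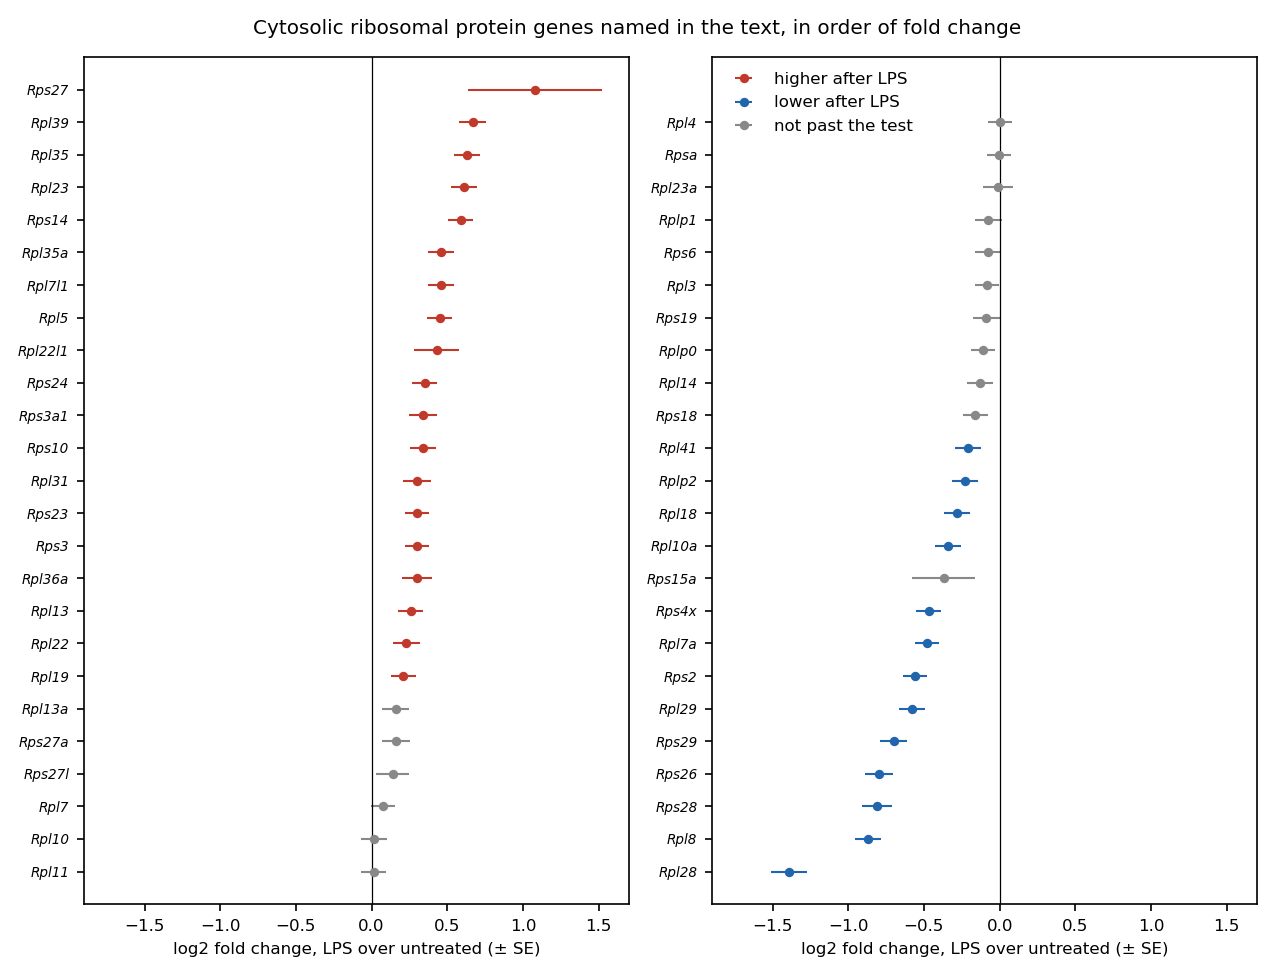
Log2 fold change (points, x axis, LPS over untreated) with its standard error (bars) of the tested members that the text names, in order from the highest to the lowest, coloured by call. The order runs from Rps27 at 1.08 through Rpl4 and Rpsa near 0 to Rpl8 at -0.87 and Rpl28 at -1.39.

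Rpl28, which encodes a large subunit protein, fell by more than 2-fold. Rpl28 was at 43.2 and 41.2 CPM in LPS libraries and at 109 and 112 CPM in untreated libraries, so both LPS values lay far below both untreated ones. Its log2 fold change was -1.39 (SE 0.12, adjusted p = 5.0e-14). It is also one of the less abundant members, at 38.2 CPM per kilobase of transcript after LPS, where the median member had 626. Of all genes tested, 3.59% fell further than Rpl28.

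A further 6 members fell by a smaller amount. They were named for their low fold changes among members with separate groups, so the separation is a condition of naming them, and 75.1% of all genes tested had separate groups. Rpl8, whose protein sits close to the peptidyl transferase centre, was at 328 and 373 CPM in LPS libraries and 627 and 656 CPM in untreated libraries (log2 fold change -0.87, SE 0.085). Rps28 was at 96.9 and 120 CPM in LPS libraries and 196 and 186 CPM in untreated libraries (-0.81, SE 0.10). Rps26, whose protein touches the mRNA where it leaves the small subunit, was at 147 and 170 CPM in LPS libraries and 273 and 281 CPM in untreated libraries (-0.80, SE 0.092). These 3 genes, of both subunits, are neighbours in the order of fold changes by which they were named, so their values are close by selection. Rps29 had 254 and 317 CPM in LPS libraries against 459 and 474 CPM in untreated libraries (-0.70, SE 0.09), and Rpl29 265 and 305 against 419 and 438 CPM (-0.58, SE 0.087). Rps26 and Rps29 are among the genes mutated in human Diamond-Blackfan anaemia. Rps2, a protein at the mRNA entry of the small subunit, was the most abundant of the fallers, at 1180 and 1374 CPM in LPS libraries and 1827 and 1940 CPM in untreated libraries (-0.56, SE 0.082).

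Further fallers were Rpl7a, Rps4x, Rpl10a, Rpl18, Rplp2 and Rpl41, with log2 fold changes from -0.48 to -0.21. Rpl7a was at 545 and 599 CPM in LPS libraries and 768 and 830 CPM in untreated libraries. The X-linked gene Rps4x was at 582 and 590 CPM in LPS libraries and 800 and 825 CPM in untreated libraries. Rpl10a, the protein of the L1 stalk through which spent tRNA leaves, was at 280 and 283 CPM in LPS libraries and 348 and 363 CPM in untreated libraries. All 3 kept their call under every alternative. Rpl18, Rplp2 and Rpl41 lost their call in some of the 14 alternative settings. In all, 11 of the 15 fallers kept it in each of the 14, among them Rpl28, Rpl8, Rps28, Rps26, Rps29, Rpl29, Rps2, Rpl7a, Rps4x and Rpl10a.

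**Figure D3:**
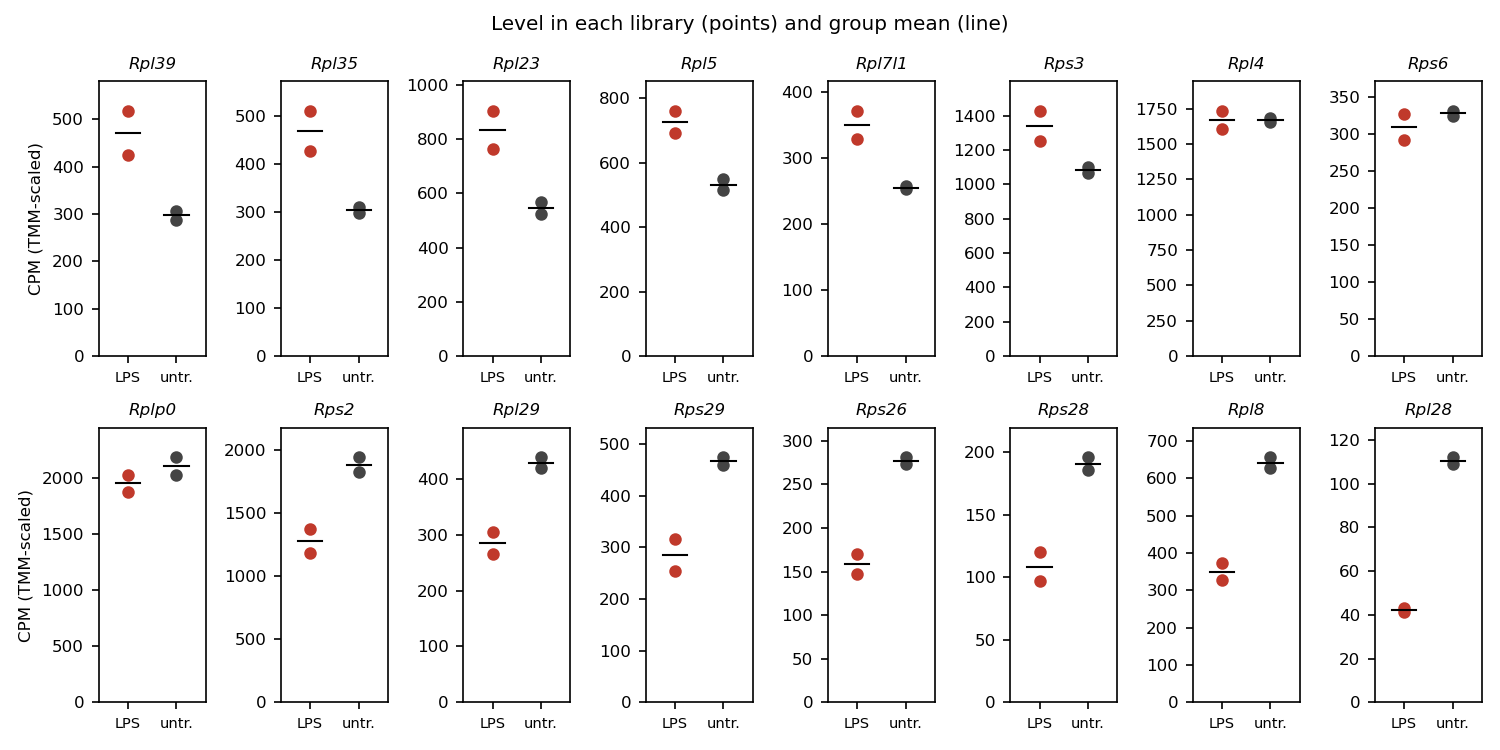
Level in CPM (y axis, starting at 0) of selected members in the 2 LPS libraries (left, red) and the 2 untreated libraries (right, grey), with the group mean as a line. The upper row runs from risers such as Rpl39 (424 and 518 CPM after LPS against 306 and 288) to members without a call, and the lower row holds Rplp0 and the fallers down to Rpl28.

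Rpl39, Rpl35, Rpl23 and Rps14 rose and kept their call in each of the 14 settings. Rpl39, a small protein that lines the exit tunnel, was at 424 and 518 CPM in LPS libraries and 306 and 288 CPM in untreated libraries (log2 fold change 0.67, SE 0.089, adjusted p = 2.2e-08). Rpl35, which lies at the tunnel's end, was at 426 and 510 CPM in LPS libraries and 309 and 298 CPM in untreated libraries (0.63, SE 0.088). Rpl23, one of the ribosomal proteins known to bind the p53 regulator MDM2 in human cells, was at 763 and 904 CPM in LPS libraries and 569 and 525 CPM in untreated libraries (0.61, SE 0.085). All 3 encode large subunit proteins, and they were named for high fold changes among members with separate groups. Rps14, the small subunit gene lost in the human 5q- syndrome, was at 595 and 662 CPM in LPS libraries and at 418 CPM in both untreated libraries (0.59, SE 0.083). LPS replicate 2 was the higher LPS library for all 4 genes.

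Rps27 had the highest log2 fold change, 1.08 (SE 0.44, adjusted p = 0.0359), from 16 and 15 reads in LPS libraries and 6 and 17 reads in untreated libraries. As levels these were 5.54 and 4.55 CPM after LPS and 1.15 and 3.75 CPM without LPS. So few reads carry little weight, and the call was lost in 6 of 14 settings, DESeq2 and the omission of untreated replicate 1 among them (adjusted p = 0.3 and 0.538). Rpl35a was at 364 and 422 CPM in LPS libraries and 293 and 279 CPM in untreated libraries (0.46, SE 0.087). Rpl7l1 was at 328 and 371 CPM against 257 and 252 CPM (0.46, SE 0.087). Each of these 2 calls was lost with scaling by library size alone and in no other setting.

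Most of the remaining risers had log2 fold changes from 0.45 (Rpl5) to 0.21 (Rpl19). Of the 21 risers, 11 had negative values when libraries were scaled by size alone, among them Rps10, Rps3a1, Rps23, Rps24, Rps3, Rpl31, Rpl36a, Rpl13, Rpl22 and Rpl19, whereas no riser did so with upper quartile scaling and no faller turned positive with either. Rps3, at the mRNA entry and in human cells also a partner of NF-kB p65, was at 1250 and 1427 CPM in LPS libraries and 1103 and 1068 CPM in untreated libraries (0.30, SE 0.081), against -0.055 with library size alone. Rps10, shown above with its TOP tract, was at 563 and 676 CPM in LPS libraries and 477 and 501 CPM in untreated libraries (0.34, SE 0.085). Rps23, near the decoding site, reached 975 and 1067 CPM after LPS against 820 and 835 CPM without. In all 3 genes the groups were separate, at a smaller log2 fold change than that of Rpl39.

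Rpl5 and Rpl11, which with the smallest ribosomal RNA form a particle that can hold MDM2 away from p53, did not move alike. Rpl5 rose, at 693 and 761 CPM in LPS libraries and 548 and 516 CPM in untreated libraries (0.45, SE 0.082, adjusted p = 7.8e-06). Rpl11 was at 563 and 656 CPM in LPS libraries and 606 and 602 CPM in untreated libraries (0.014, SE 0.083, adjusted p = 0.899), with the untreated values between the LPS values. The difference between the 2 genes was not tested. After GC correction Rpl5 was at 0.18 (adjusted p = 0.0351) and Rpl11 at 0.12 (0.2), and with library size alone at 0.092 (0.415) and -0.34 (9.2e-04).

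Of the 3 stalk proteins, which recruit the elongation factors to the large subunit, Rplp2 passed the test as lower. Rplp0, by CPM the most abundant member, was at 1872 and 2030 CPM in LPS libraries and 2030 and 2183 CPM in untreated libraries (-0.11, SE 0.08, adjusted p = 0.249), so that the groups just failed to overlap. Rplp1 was at 810 and 989 CPM in LPS libraries and 896 and 1001 CPM in untreated libraries (-0.075, SE 0.088). Rplp2 fell, at 357 and 417 CPM in LPS libraries and 452 and 460 CPM in untreated libraries (-0.23, SE 0.085, adjusted p = 0.019), a call that was lost with DESeq2, after GC correction and when either untreated library or LPS replicate 1 was left out. Rplp0 was called lower with upper quartile scaling (-0.21, adjusted p = 0.0235), library size alone (-0.47, 2.5e-06) and without LPS replicate 2 (-0.17, 0.0369), and Rplp1 lower with library size alone (-0.43, 2.1e-05) and without LPS replicate 2 (-0.23, 0.00623) but higher after GC correction (0.20, 0.0344). Per kilobase of transcript, the members with most reads were Rplp1 with 1803 CPM after LPS and 1901 without, Rps18 with 1610 and 1805, Rps2 with 1279 and 1887, and Rplp0 with 1437 and 1551.

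Several members with known roles besides or at the core of translation did not pass the test with TMM scaling. Rps6, the protein that S6 kinases phosphorylate downstream of mTORC1, was at 292 and 327 CPM in LPS libraries and 324 and 331 CPM in untreated libraries (-0.08, SE 0.086, adjusted p = 0.455). Rpl13a, which in human monocytes leaves the ribosome to form part of a complex that silences inflammatory mRNAs, was at 595 and 747 CPM in LPS libraries and 576 and 624 CPM in untreated libraries (0.16, SE 0.09, adjusted p = 0.132). Rps27a, made as a fusion with ubiquitin, was at 177 and 189 CPM in LPS libraries and 169 and 158 CPM in untreated libraries (0.16, SE 0.092). The values of Rps6 and Rpl13a overlapped between the groups and those of Rps27a did not. Rpsa, known also as a laminin receptor, was at 1030 and 1087 CPM in LPS libraries and 1021 and 1104 CPM in untreated libraries (-0.0047, SE 0.08). Rps19, the gene most often mutated in Diamond-Blackfan anaemia, had 439 and 557 CPM after LPS and 539 and 521 CPM without (-0.089, SE 0.09). Rpl10, which joins the large subunit late in its assembly, had 266 and 291 CPM after LPS and 266 and 284 CPM without (0.018, SE 0.087). Rpl23a, the docking site of the signal recognition particle, had 146 and 140 CPM after LPS and 134 and 155 CPM without (-0.011, SE 0.097). Some of these members gained a call in other settings. Rpl13a was called higher after GC correction (0.29, adjusted p = 0.00638) and without LPS replicate 1 (0.32, 6.6e-05), and Rpsa higher after GC correction (0.23, 0.00693) but lower with library size alone (-0.36, 3.8e-04). With library size alone Rps6 (-0.44), Rps19 (-0.45), Rpl10 (-0.34) and Rpl23a (-0.37) were also called lower, and Rps19 likewise without LPS replicate 2 (-0.27).

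Some members have a paralogue, which in some pairs, though not in all, can stand in for them in the ribosome. Rpl22 was at 276 and 322 CPM in LPS libraries and 263 and 248 CPM in untreated libraries (0.23, SE 0.089, adjusted p = 0.027), and its paralogue Rpl22l1 at 34.9 and 40.6 CPM against 29.8 and 26.5 CPM (0.43, SE 0.15, adjusted p = 0.0153). Both calls were lost with DESeq2 (adjusted p = 0.134 and 0.189) and after GC correction (0.196 and 0.507), and Rpl22 turned to -0.13 with library size alone. Rpl7 was at 1339 and 1353 CPM in LPS libraries and 1265 and 1295 CPM in untreated libraries (0.073, SE 0.079, adjusted p = 0.454), beside the riser Rpl7l1. The difference within a pair was not tested. Rps27l, a target of p53, was at 111 and 146 CPM in LPS libraries and 118 and 117 CPM in untreated libraries (0.14, SE 0.11, adjusted p = 0.284), far above the level of its paralogue Rps27 given above. Per kilobase, Rps27l had 258 CPM after LPS and 236 without, against 14.6 and 7.1 for Rps27. Only uniquely placed reads are counted, so the low count of Rps27 does not show low expression, and the 2 levels cannot be ranked. Rpl3, of the peptidyl transferase centre, was at 1346 and 1539 CPM in LPS libraries and 1543 and 1513 CPM in untreated libraries (-0.083, SE 0.081), while its muscle paralogue Rpl3l had 3 reads in all.

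Some ribosomal protein genes had few reads or none. Rpl26, a standard protein of the large subunit, had no read in any library and is therefore not a member. The paralogues Rpl10l, Rpl39l and Rps4l, which are not needed where the main gene is used, were also at 0, where 3 reads would be 1.04 and 0.909 CPM in the LPS and 0.573 and 0.662 CPM in the untreated libraries. Rpl30 had 3 and 5 reads in LPS libraries and 7 and 10 reads in untreated libraries, and Rpl34 had 4 and 11 against 8 and 3, so these 2 members were not tested. Rps27 and Rps15a also stood well below the rest, the last with 16.3 and 12.1 CPM in LPS libraries and 17 and 19.4 CPM in untreated libraries (-0.37, SE 0.21). Ribosomal protein genes have many processed pseudogene copies in mammalian genomes, and counts of uniquely placed reads leave out reads that match several copies, so low levels here do not show low expression. The files list 7 pseudogene symbols of the form Rpl14-ps1, with summed levels of 2.77 and 0.606 CPM in LPS libraries and 2.1 and 1.99 CPM in untreated libraries. Reads placed at several positions were 10.1% and 10.3% of all reads in the LPS and 10.5% and 10.6% in the untreated libraries. How many of them belong to members was not tested.

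The LPS libraries differed from each other in the level of the whole family. Among the 77 tested members, 71 were higher in LPS replicate 2 than in LPS replicate 1, with a median log2 ratio of 0.20, against 50.6% of all genes tested and a median of 0.003. In the untreated pair 47 members were higher in replicate 2, with a median of 0.027. Without LPS replicate 1 the median log2 fold change was 0.096 over the members and -0.014 over all genes tested. Without LPS replicate 2 it was -0.09 over the members and -0.011 over all genes. Without untreated replicate 2 it was 0.018 and -0.00069. The direction of the family's median thus depends on which LPS library is kept, while the falls of Rpl28, Rpl8, Rps28, Rps26, Rps29, Rpl29 and Rps2 and the rises of Rpl39, Rpl35, Rpl23 and Rps14 do not. LPS replicates 1 and 2 had 59.1% and 57.4% of uniquely placed reads outside annotated features, against 53.0% and 51.8% in the untreated libraries, and the part of this in the results was not tested.

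**Figure D4:**
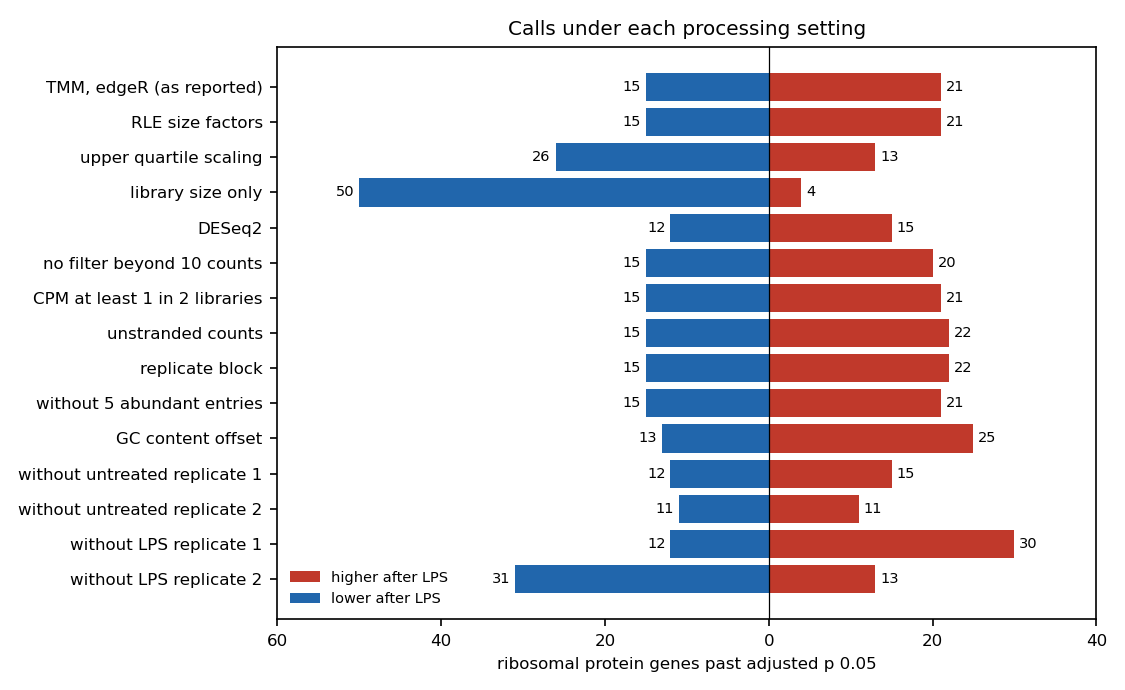
Number of ribosomal protein genes called higher (red, to the right of 0) and lower (blue, to the left) after LPS under each processing setting, listed down the page. The counts of 21 and 15 with TMM scaling become 4 and 50 with library size alone, and the 2 settings that leave out one LPS library tilt in opposite directions.

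Base composition went with the changes to about the degree seen in the whole transcriptome. Over the 77 tested members the log2 fold change and the GC content of the transcript had a Spearman rho of -0.31 and a Pearson r of -0.26, and over 9957 genes with a GC value rho was -0.32. These are correlations across genes of the same 4 libraries, and genes are not independent replicates. Transcript length showed no such relation among the members (rho 0.0041), and the untreated level per kilobase a weak one (rho -0.18). With fold changes corrected for GC content, 25 members were higher and 13 lower, where 2479 of 9992 genes were higher and 2434 lower. With that correction 17 of the 21 risers and 11 of the 15 fallers kept their call. Among members named above, the log2 fold change after GC correction was smaller by over 1.5 times for Rpl8 (-0.57), Rpl29 (-0.32), Rps2 (-0.32) and Rpl5 (0.18), which kept their calls. The order of the members by level per kilobase was close in both conditions (rho 0.92 between the group means).

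**Figure D5:**
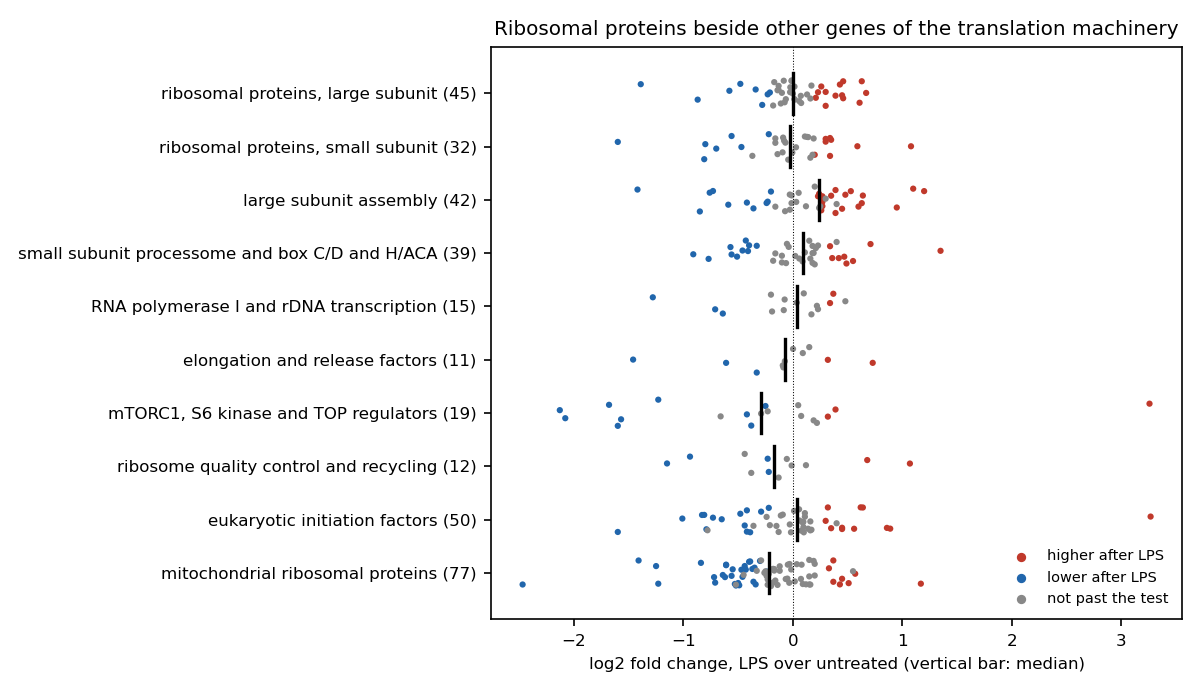
Log2 fold change (x axis, LPS over untreated) of single genes (points, coloured by call) in the 2 ribosomal subunits and 8 other lists of the translation machinery, with the median of each list as a bar and the number of tested genes in brackets. The ribosomal protein medians lie at 0.00057 (large subunit) and -0.024 (small subunit), the large subunit assembly median at 0.24 and the mitochondrial ribosomal protein median at -0.22.

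A few ribosomal proteins have symbols that the rule leaves out. Gnb2l1, which encodes the scaffold RACK1 on the small subunit, was at 1758 and 1939 CPM in LPS libraries and 2116 and 2201 CPM in untreated libraries (log2 fold change -0.22, SE 0.08, adjusted p = 0.0166). Rpl36al, a paralogue of Rpl36a, was at 171 and 168 CPM against 197 and 214 CPM (-0.28, SE 0.092, adjusted p = 0.00933). Fau, whose ribosomal protein is made as a fusion with a protein like ubiquitin, did not pass the test (0.06, SE 0.094). In this list 0 of 4 tested genes rose and 2 fell, with 4 lower when libraries were scaled by size alone. The call of Gnb2l1 was lost without untreated replicate 1 (adjusted p = 0.1), untreated replicate 2 (0.212) or LPS replicate 1 (0.0577), and that of Rpl36al with DESeq2 (0.0687) and without untreated replicate 2 (0.165).

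Of 42 tested genes for assembly of the large subunit, 18 rose and 10 fell (5 and 17 with library size alone). Their median log2 fold change was 0.24. The nucleolar protein gene Ncl was at 502 and 436 CPM in LPS libraries and 226 and 211 CPM in untreated libraries (1.10, SE 0.088). Sbds, needed to free the new subunit for joining and mutated in human Shwachman-Diamond syndrome, was at 84.4 and 99.7 CPM against 40.3 and 40 CPM (1.20, SE 0.12). Both more than doubled, whereas Grwd1, a chaperone of RPL3, fell to 25.6 and 18.2 CPM in LPS libraries, against 54 and 62.5 CPM in untreated libraries (-1.42, SE 0.15). The list's share of calls was above that of the ribosomal proteins themselves and that of all genes tested, differences that were not tested. Over all genes 26.6% were higher and 25.3% lower (13.8% and 47.8% with library size alone). These shares are the background for the counts of this list and of each other list.

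Of 39 tested genes of the small subunit processome and of the box C/D and H/ACA particles, which process and modify ribosomal RNA, 8 rose and 10 fell (2 and 20 with library size alone). Utp3 rose to 47.4 and 39.7 CPM in LPS libraries, against 15.5 and 18.8 CPM in untreated libraries (1.35, SE 0.16), and Nop58 to 161 and 164 CPM against 104 and 94.1 CPM (0.71, SE 0.098). Tbl3 fell to 74.7 and 66.1 CPM, against 135 and 130 CPM (-0.91, SE 0.11). Among 15 genes of RNA polymerase I and its factors, 2 rose and 3 fell (0 and 7 with library size alone). The fallers were Ubtf (log2 fold change -0.64), Polr1b (-1.28) and Taf1c (-0.71), a factor on ribosomal DNA, a core subunit and a part of the promoter selectivity complex. The risers were Taf1d (0.37) and Polr1d (0.34). The median of this list was 0.036 with TMM scaling and -0.32 with library size alone.

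Of 11 genes listed as elongation and release factors or related to them by symbol or role, 2 rose and 3 fell (1 and 9 with library size alone). Eef1g, a subunit of the exchange factor for elongation factor 1, was at 655 and 684 CPM in LPS libraries and 1002 and 1040 CPM in untreated libraries (-0.61, SE 0.08). Eef1e1, whose product is not itself an elongation factor, rose (0.73, SE 0.10), and Eef2k, the kinase that restrains elongation, fell from a low level (-1.46, SE 0.33). Among 17 other genes known for TOP mRNAs, 4 rose and 3 fell (1 and 8 with library size alone). Tpt1 was at 703 and 826 CPM in LPS libraries and 452 and 480 CPM in untreated libraries (0.71, SE 0.084), and Npm1 rose as well (0.45, SE 0.08), a call that was lost with library size alone (0.089, adjusted p = 0.413). TOP mRNAs outside the family also held both risers and fallers with TMM scaling.

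Of 19 tested genes of mTORC1, S6 kinases and their regulators, 3 rose and 9 fell (1 and 14 with library size alone). Eif4ebp2, a repressor of cap-dependent initiation, was at 24.6 and 18.5 CPM in LPS libraries and 70.5 and 59 CPM in untreated libraries (-1.60, SE 0.15). Sesn1 was at 5.19 and 7.58 CPM against 28.1 and 26.7 CPM (-2.08, SE 0.23), and Deptor at 32.2 and 27.3 CPM against 72.9 and 66.2 CPM (-1.23, SE 0.14). Myc, a transcription factor that drives ribosome synthesis, was named after its values were seen. It had 18 and 14 reads in LPS libraries against 1 and 4 in untreated libraries (3.26, SE 0.57, adjusted p = 4.5e-06). Also named after their values were seen, Rheb (0.39, SE 0.11) and Eif4e (0.32, SE 0.099) were the other risers. The fallers included Larp1 (-0.25, SE 0.082) and Rptor, a part of mTORC1 (-0.38, SE 0.15). The member median was -0.0047 with TMM scaling and -0.36 with library size alone, and a link between it and these regulators was not tested.

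Mitochondrial ribosomal proteins, of which 77 were tested, showed a lower median than the cytosolic ones, -0.22, with 8 higher and 29 lower (1 and 55 with library size alone). Mrpl4 fell to 4.15 and 5.15 CPM in LPS libraries, against 30.4 and 21.4 CPM in untreated libraries, Mrps18b fell as well (-1.41), and Mrpl52 rose to 77.5 and 74.6 CPM, against 31.5 and 36 CPM. Of 50 tested initiation factor genes by symbol, 11 rose and 14 fell (4 and 32 with library size alone). Of these, the antiviral kinase gene Eif2ak2 rose to 116 and 100 CPM in LPS libraries, against 10.1 and 12.4 CPM in untreated libraries, and Eif4a2 rose too (0.86). Among 12 genes of ribosome quality control, 2 rose and 4 fell (1 and 8 with library size alone). They include Zfp598, a sensor of collided ribosomes, which fell (-1.15), Hbs1l, a rescue factor, which fell (-0.94), and Nemf, which rose (0.68), a call that was lost with library size alone (adjusted p = 0.0517).

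Short motifs (5 in all) and the TOP start were counted in the promoter windows on both strands, the TOP start on the strand of the gene alone. A TOP start, here C at the annotated start followed by at least 4 pyrimidines, was found in 13 of the 59 members with a window (22.0%), against 2.86% of 7703 tested genes and 3.01% of all 27025 genes of the table. Of the members with it, 4 rose (Rpl35, Rpl35a, Rps10 and Rps27), 2 fell (Rpl28 and Rplp2) and 7 did not pass. That is 21.1% of the risers with a window, 20% of the fallers and 24.1% of the others. A start annotated some bases off its true place would hide such a tract.

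The ETS core CCGGAAG stood in 24 of the 59 members (40.7%), against 23.1% of tested genes and 9.93% of all genes of the table. It was present in 6 of 19 risers, 4 of 10 fallers and 13 of 29 members that did not pass, and in the untested Rpl34. GAGGAAGT, which shares GGAAG with the ETS core, stood in 3 members (5.08%, against 4.09% of tested genes), and these were Rpl35, Rpl36a and Rpl13a. AAGATGGC, a part of the YY1 site, was found in 6 members (10.2%, against 6.04%), TATAAA in 7 (11.9%, against 8.18%) and the E-box CACGTG in 6 (10.2%, against 12.5%). A match describes these letters in these windows and is not evidence of a bound site.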

How the data were processed

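RNA of 4 libraries was depleted of ribosomal RNA and sequenced with a strand-specific kit, per the labels' protocols. Tools listed in the submitters' processing notes are STAR 2.5.1, CASAVA 1.8.2, Trimmomatic 0.33 and DESeq2. They also list hg19, a human build, although the gene symbols are mouse. Which annotation was used is not stated there. The authors deposited unnormalised counts of reads per gene and library in STAR's layout, with no coordinates. Reverse-strand counts were used, and they exceeded the forward-strand total 78.7 to 95.3 times. STAR's 4 summary lines were left out.

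The whole table was fitted with edgeR 4.0.16 in R 4.3.3 (filterByExpr, TMM, robust quasi-likelihood test, treatment as the only term), tested first on simulated counts. TMM factors were 0.888 and 0.88 in the LPS and 1.16 and 1.1 in the untreated libraries. Each SE was approximated from the fold change and its F statistic. DESeq2 1.42.0 was an alternative. Lengths and GC content come from 1 GENCODE M21 transcript per symbol (best APPRIS class and support, then shortest), which 99.6% of tested genes had. Levels per kilobase divide the TMM-scaled CPM by that length.

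Members named were a fixed set by role, paralogue pairs, the 8 highest and 8 lowest changed members with separate groups, and the 4 with most reads per kilobase; other lists give the 3 smallest p. Other members are named with their values where a count needed them. The members and lists were chosen with earlier results of these data known. Results of some single genes are not reported here, though they stay in the fit and the counts.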

Additional observations from a re-analysis of the deposited data

Results flagged for a closer look

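Of the comparisons above, only the alternative setting that counts both strands includes reads on the strand opposite to the members. Such reads were few. They numbered 166 and 507 in the LPS libraries and 169 and 149 in the untreated libraries, 0.142% and 0.332% against 0.0753% and 0.0755% of the members' stranded reads. In that column 4 members had enough reads to be tested, and 2 of them passed edgeR's test as higher after LPS, where 19.3% of the 757 genes tested there did. Rpl3 had 14 and 35 opposite-strand reads in LPS libraries and 7 and 5 in untreated libraries (log2 fold change 2.54, adjusted p = 6.8e-04). Rpl13a had 13 and 36 against 11 and 7 (log2 fold change 1.97, adjusted p = 0.00338). In both genes LPS replicate 2 held most of these reads. Rpl5 (1.21, adjusted p = 0.0664) and Rps25 (-1.04, adjusted p = 0.124) did not pass.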

How the results depend on the processing

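Of 14 alternatives, 4 moved the number of higher members (21) by over 1.5 times. It was 13 with upper quartile scaling and 4 with library size alone, and leaving out 1 library gave 11 to 30. The number of lower members (15) was 26 with upper quartile scaling, 50 with library size alone and 11 to 31 with 1 library left out. The median member log2 fold change was -0.10 with upper quartile scaling and -0.36 with library size alone. Over all genes it was -0.096 and -0.36, so both shifts were shared by all genes. With 1 library left out the member median was -0.09 to 0.096. With library size alone 11 of the 21 higher members turned negative. Among the members named by the fixed rule the sign turned for Rps3 (-0.055), Rps27a (-0.20), Rpl13a (-0.19), Rpl11 (-0.34), Rpl10 (-0.34), Rpl22 (-0.13), Rps27l (-0.22) and Rpl7 (-0.28), and among them with upper quartile scaling for Rpl11 (-0.083), Rpl10 (-0.079) and Rpl7 (-0.024). After GC correction it turned for Rplp1 (0.20), Rpsa (0.23), Rps19 (0.18), Rps27l (-0.063) and Rpl7 (-0.094). Leaving out 1 library turned the sign of 9 genes, whose values ranged from -0.23 to 0.062 (Rplp1), -0.066 to 0.045 (Rpsa), -0.012 to 0.32 (Rpl13a), -0.10 to 0.12 (Rpl11), -0.27 to 0.071 (Rps19), -0.049 to 0.081 (Rpl10), -0.12 to 0.085 (Rpl23a), -0.079 to 0.32 (Rps27l) and -0.18 to 0.01 (Rpl3). Beyond the scalings the cause was not tested. Over 62 named genes and 14 alternatives, 788 of 868 values kept direction and call. Many of these genes were named for large changes or small p in the same data, and several alternatives differ little from the main fit. This count is therefore no measure of how stable the results of other genes are.

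The replicate numbers of the 2 groups are shared in the titles, without a label that pairs them, and deviations of same-numbered libraries correlated at -0.0435 over all genes tested and -0.451 over the members. With the replicate block 22 members were higher and 15 lower. Few reads limit the precision for Rps27, Rpl30 and Rpl34, and 2 libraries in a group leave the spread poorly known.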
